A study of Mus musculus with 4 samples.

Results

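The comparison set mouse induced neural stem cells made with 14 factors (iNSC_14F) against those made with 13 factors (iNSC_13F), across all probe sets that the array annotation names by 1 gene. These were 34945 of the 45101 probe sets of an Affymetrix mouse array and covered 18193 genes. The samples were 2 of the 4 in the series, with 1 array each, so every difference below is a size and none has a replicate check, an SD or a p-value. The other 2 arrays, primary-derived neural stem cells (NSC) and mouse embryonic fibroblasts (MEF), serve as reference levels.

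In such cells, introduced transcription factors have brought a cell of another kind towards the state of a neural stem cell. The series title names liver cells of adult mice and B lymphocytes as the cells reprogrammed, but the labels do not say which starting cell, animal or line gave either induced sample, and they do not name the factors. Both induced samples and the NSC were grown alike in N2, a serum-free medium, with EGF, bFGF and laminin. The culture of the fibroblasts is not described in the labels. The source label calls all 4 samples embryonic stem cells, which goes against the cell type label used here. Of 16 pluripotency markers, 13 were below the floor on both induced arrays, among them Pou5f1 and Nanog.

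Values are array signals on a linear intensity scale. The floor, a signal of 104.1, is the level below which a gene was not told apart from receptor genes that these cells are not thought to express. A gene was called measured when its brightest probe set was above the floor on at least 1 of the induced arrays, which held for 10817 genes. Where the dimmer array is at or below the floor, the fold is a bound and is written "at least". Where a pair of signals is joined by "against" or "and" with no sample named, the 14-factor value comes first. In RNA from whole cultures, fewer cells of a type and less RNA per cell cannot be told apart.

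Many of the genes with the largest differences higher in the 14-factor cells belong to the response to low oxygen. In this pathway, hypoxia-inducible factors (HIF) pair an oxygen-regulated alpha subunit with ARNT. Prolyl hydroxylases mark the alpha subunit for destruction by VHL when oxygen is present. When the subunit is stable, the pair binds short DNA motifs and raises genes for glucose uptake, glycolysis, mitophagy and blood vessel growth. The same genes can also respond to growth signals and to nutrients. Neural stem cells rely largely on glycolysis, and oxygen tension is known to affect their self-renewal.

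On the array of 14-factor cells, 53 genes were at least 4-fold higher than on the array of 13-factor cells, which is 0.49% of measured genes. Another 39 genes, 0.361%, were at least 4-fold lower. At 2-fold, 647 genes (5.98%) were higher and 319 genes (2.95%) were lower. Higher calls made up 57.6% of the calls at 4-fold, but this split moved with the scaling. It was 49.5% after quantile normalization, 41.8% after a loess fit on brightness and 73.6% after scaling to the hybridization controls, which also moved the median log2 difference of all measured genes to 0.25. Most genes were close: 91.3% of the 9326 genes above the floor on both arrays were within 2-fold, and the median log2 difference of all measured genes was 0.07.

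**Figure D1:**
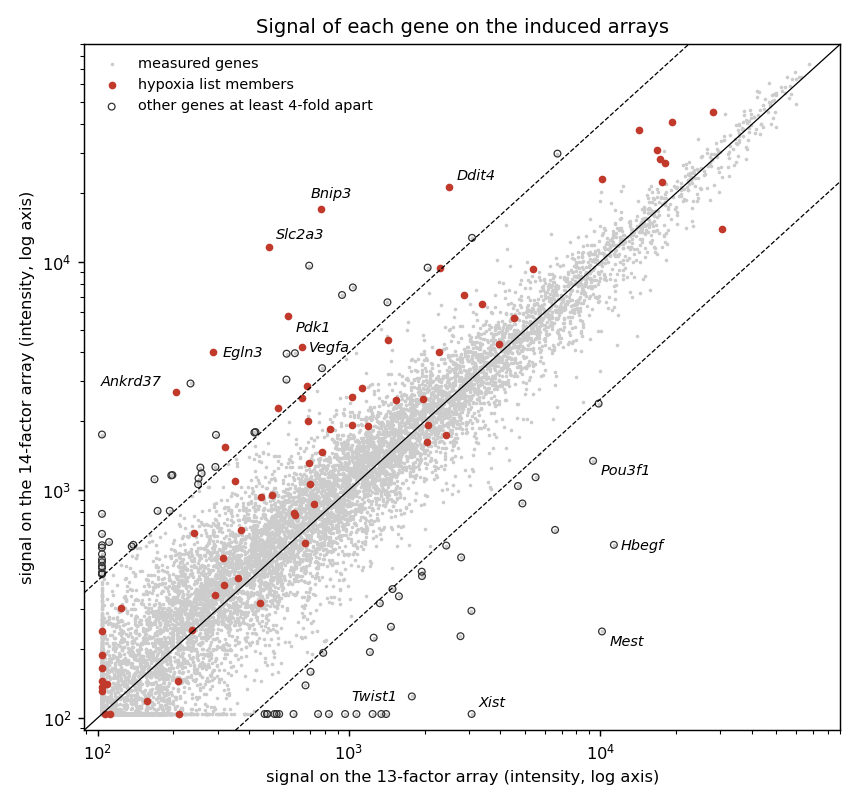
Signal of each measured gene on the 13-factor array (x axis) and on the 14-factor array (y axis), both in intensity units on log axes, with signals below the floor drawn at the floor. Red points are members of the 7 hypoxia lists, open circles are other genes at least 4-fold apart, the solid line marks equal signals and the dashed lines 4-fold differences. Slc2a3, Bnip3, Egln3, Ankrd37, Pdk1 and Ddit4 stand above the upper line, and Mest, Xist, Hbegf and Pou3f1 below the lower one.

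HIF factors bind DNA at a short core, here searched as ACGTG or GCGTG and, on the other strand, CACGT or CACGC. The promoters below are shown as examples among the hypoxia genes at least 4-fold higher: 5 of those with the largest differences, Slc2a1 with the smallest, and Gys1 as one that holds no core. Each run is the 250 bases before the gene's start, read 5′ to 3′ on the gene's strand, from the RefSeq table of build GRCm38.p6, and the capitals mark the cores, with adjoining or overlapping ones run together. Bnip3 lies at chr7:138909507-138909756 on the minus strand and held 5 cores. Egln3 lies at chr12:54203875-54204124, minus strand, with 1 core. Ankrd37 lies at chr8:45999851-46000100, minus strand, with 4. Pdk1, of whose 2 starts in the table the one with more cores is shown, lies at chr2:71872974-71873223 on the plus strand with 1. Ddit4 lies at chr10:59951771-59952020, minus strand, with 2. Slc2a1 lies at chr4:119108495-119108744, plus strand, with 2. Gys1 lies at chr7:45434589-45434838, plus strand.
Bnip3: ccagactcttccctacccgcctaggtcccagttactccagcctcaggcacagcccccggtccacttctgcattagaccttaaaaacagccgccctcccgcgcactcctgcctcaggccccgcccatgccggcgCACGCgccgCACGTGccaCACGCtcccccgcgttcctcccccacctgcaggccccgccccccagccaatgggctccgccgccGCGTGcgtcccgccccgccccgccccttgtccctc
Egln3: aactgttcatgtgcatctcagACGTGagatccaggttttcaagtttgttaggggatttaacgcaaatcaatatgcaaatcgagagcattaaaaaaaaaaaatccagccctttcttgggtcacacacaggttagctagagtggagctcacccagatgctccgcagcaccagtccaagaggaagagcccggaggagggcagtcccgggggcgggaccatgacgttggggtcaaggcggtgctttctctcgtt
Ankrd37: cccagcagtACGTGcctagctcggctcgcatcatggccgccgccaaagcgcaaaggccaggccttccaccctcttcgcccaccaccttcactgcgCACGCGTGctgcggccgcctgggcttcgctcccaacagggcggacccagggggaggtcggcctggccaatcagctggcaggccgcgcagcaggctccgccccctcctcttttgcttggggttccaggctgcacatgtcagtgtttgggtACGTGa
Pdk1: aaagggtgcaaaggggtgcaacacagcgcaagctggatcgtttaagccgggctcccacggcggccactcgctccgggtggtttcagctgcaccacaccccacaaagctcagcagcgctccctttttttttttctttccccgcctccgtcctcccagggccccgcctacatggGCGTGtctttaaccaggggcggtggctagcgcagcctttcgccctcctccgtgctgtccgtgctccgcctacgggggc
Ddit4: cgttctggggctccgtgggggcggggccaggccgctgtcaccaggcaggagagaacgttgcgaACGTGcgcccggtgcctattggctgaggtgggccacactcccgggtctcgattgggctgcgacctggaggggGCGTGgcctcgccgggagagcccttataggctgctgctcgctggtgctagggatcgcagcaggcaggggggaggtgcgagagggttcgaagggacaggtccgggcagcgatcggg
Slc2a1: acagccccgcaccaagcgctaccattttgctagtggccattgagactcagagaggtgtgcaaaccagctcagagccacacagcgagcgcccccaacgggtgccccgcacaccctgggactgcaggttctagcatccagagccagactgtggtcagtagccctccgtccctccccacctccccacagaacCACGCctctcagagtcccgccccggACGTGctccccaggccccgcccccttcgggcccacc
Gys1: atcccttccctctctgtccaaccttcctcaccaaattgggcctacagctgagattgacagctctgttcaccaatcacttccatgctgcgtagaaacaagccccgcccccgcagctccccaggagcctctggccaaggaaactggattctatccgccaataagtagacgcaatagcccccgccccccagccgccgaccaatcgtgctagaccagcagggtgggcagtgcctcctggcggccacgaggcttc

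At least 1 core was found in 12679 of all 32851 promoters in the table, or 38.6%. The share was 56.4% for promoters of measured genes, 75.3% for the 85 promoters of 61 measured hypoxia genes and 75% for the 12 promoters of 10 hypoxia genes at least 4-fold higher. For all genes at least 4-fold higher it was 68.5%, and for those at least 4-fold lower 45%. A match is a description of the sequence and shows no binding.

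Of 87 genes in 7 hypoxia lists, 70 were measured. In the 14-factor cells 26 of them, 37.1%, were at least 2-fold higher against 5.98% of all measured genes. At least 4-fold higher were 11, against 0.49% of all measured genes. The exceptions were Igfbp3 and Pfkfb2, which were at least 2-fold lower. The median log2 difference of the 70 genes was 0.80, against 0.07 for all measured genes, and 59 of the 70 were on the higher side. These lists were written with earlier results of these data known, so the counts describe them and support nothing further. Of the 53 genes at least 4-fold higher, 11 were in the hypoxia lists, and none of the 39 genes at least 4-fold lower was.

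Slc2a3 led the set. It encodes the high-affinity glucose transporter GLUT3 of neurons and had a signal of 11655 in the 14-factor cells. It was 478 in the 13-factor cells, 407 in NSC and 1064 in MEF. The 14-factor array thus stood alone, 24.4-fold above the 13-factor array, and the less different of the 2 measured probe sets of Slc2a3 was still 4.27 higher on the log2 scale. Slc2a1, the GLUT1 transporter found in most cells, read 9385 in the 14-factor cells, 2301 in the 13-factor cells, 875 in NSC and 10055 in MEF. It was 4.08-fold higher in the 14-factor cells, the smallest difference inside the 4-fold rule, with Rab33a just outside it at 3.99-fold. Here the 14-factor cells were near the fibroblast level and the 13-factor cells lay between MEF and NSC. Of the lactate carriers, Slc16a1 went from 4535 in the 13-factor cells to 5645 in the 14-factor cells, and Slc16a3, the carrier that exports lactate, was at least 1.32-fold higher.

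All 13 measured glycolytic enzymes were on the higher side in the 14-factor cells. Of them 6 were at least 2-fold higher, against 5.98% of all measured genes. Pfkl, the liver form of phosphofructokinase, went from 647 in the 13-factor cells to 2531 in the 14-factor cells, a 3.91-fold difference. Hk2, the inducible hexokinase that traps glucose, went from 1433 to 4553, and Hk1, its constitutive relative, from 1024 to 2555. Pfkp was at least 2.30-fold higher. Among the abundant enzymes, Tpi1, triosephosphate isomerase, went from 14166 to 37745, and Pgk1, phosphoglycerate kinase, from 19230 to 40957. Those below 2-fold had smaller differences in the same direction, with Aldoa at 1.83-fold, Pkm at 1.71-fold, Ldha at 1.62-fold and Pgam1 at 1.49-fold. Ldhb, which favours lactate use, was nearest to equal, at 4359 in the 14-factor cells and 3935 in the 13-factor cells. Pgk1 is also in the housekeeping list and was the only one of its 14 measured members at least 2-fold apart, with Actb at 43959 and 42471 and Hprt at 4362 and 3891 in the 14-factor and 13-factor cells.

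Of 12 measured genes that steer pyruvate and store glucose, 3 were at least 4-fold higher, against 0.49% of all measured genes. Pdk1 encodes the kinase that shuts pyruvate out of the mitochondrial dehydrogenase. Its signal was 5802 in the 14-factor cells, 572 in the 13-factor cells, 335 in NSC and 2415 in MEF, which gave 10.1-fold between the induced samples, and all 3 of its measured probe sets were higher. Pdk3, a related kinase, was 2.09-fold higher, at 928 against 445. Glycogen genes stood beside it: Gys1, muscle glycogen synthase, was 1547 against 320, or 4.84-fold. Pgm1, which converts glucose phosphates on the way to glycogen, was 2861 against 680, or 4.21-fold, and Gbe1, the branching enzyme, was 304 against 124, or 2.44-fold. Of the kinases that set fructose bisphosphate, Pfkfb3 was 1.92-fold higher at 953 against 495, while Pfkfb2 was at least 2.02-fold lower at 101 against 211. Most members of this group were higher, and Pfkfb2 was the one measured gene that was lower.

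Bnip3 and Ddit4 headed the genes of mitophagy and survival. Bnip3, a receptor for mitochondrial clearance, had a signal of 16976 in the 14-factor cells and 775 in the 13-factor cells, a 21.9-fold difference. NSC, at 810, sat with the 13-factor cells, and MEF was in between at 6216. Ddit4, an inhibitor of mTORC1 also known as REDD1, read 21289 in the 14-factor cells and 2502 in the 13-factor cells, an 8.51-fold difference, with NSC at 3137 and MEF at 1975. Mxi1, a MYC antagonist, was 2790 against 1128, and Higd1a, a small mitochondrial protein, was 22955 against 10128. Fundc1, another mitophagy receptor, differed by less, with 773 against 612.

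Secreted and oxygen supply genes were mixed. Ankrd37, an ankyrin repeat protein widely used as a marker of HIF activity, was 2695 in the 14-factor cells and 205 in the 13-factor cells, with NSC at 93.7 and MEF at 185, and so differed 13.1-fold. Vegfa, the growth factor for blood vessels, was 4226 against 651, or 6.50-fold, with NSC at 548 and MEF at 2014. Adm, the peptide adrenomedullin, was 1854 against 840. Other textbook targets did not join them. Car9 and Angptl4 were below the floor on both induced arrays, with Car9 at 68.7 and 14.2, and Hmox1 was 119 in the 14-factor cells against 158. Igfbp3, an IGF-binding protein, was the brightest of this group and ran the other way, at 13925 in the 14-factor cells against 30434 in the 13-factor cells.

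Within the oxygen-sensing machinery the feedback genes differed most. Egln3, the prolyl hydroxylase PHD3, was 4040 in the 14-factor cells and 289 in the 13-factor cells, a 14.0-fold difference, with NSC at 453 and MEF at 992. Egln1, the main hydroxylase PHD2, was 6506 against 3393, or 1.92-fold, and Egln2, another hydroxylase of the family, was 1620 against 2048. Bhlhe40, a repressor of the clock and of differentiation genes, was 7131 against 2871. The transcripts of the HIF subunits differed little. Hif1a was 1063 in the 14-factor cells and 698 in the 13-factor cells, and its 2 measured probe sets did not go the same way. Epas1, which encodes HIF-2 alpha, was 794 against 602, Arnt was 503 against 314, and Vhl was 1895 against 1193. Another probe set of Arnt went the other way, at 268 against 467. HIF alpha activity is set mainly at the protein level, which these arrays do not measure.

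Among oxygen-dependent enzymes 4 of 12 measured were at least 2-fold higher, against 5.98% of all measured genes, and none 2-fold lower, against 2.95%. Ero1a, the oxidase that forms disulfide bonds in the endoplasmic reticulum, was 2294 against 520, or 4.41-fold, with all 3 of its probe sets higher. Kdm3a, a histone H3 demethylase, was 1097 against 351, or 3.12-fold. The collagen-modifying enzymes P4ha1, 2012 against 685, and Plod2, 647 against 242, were 2.94-fold and 2.68-fold higher. NSC, at 2155 for Kdm3a and 841 for Plod2, was higher than both induced samples in these genes.

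**Figure D2:**
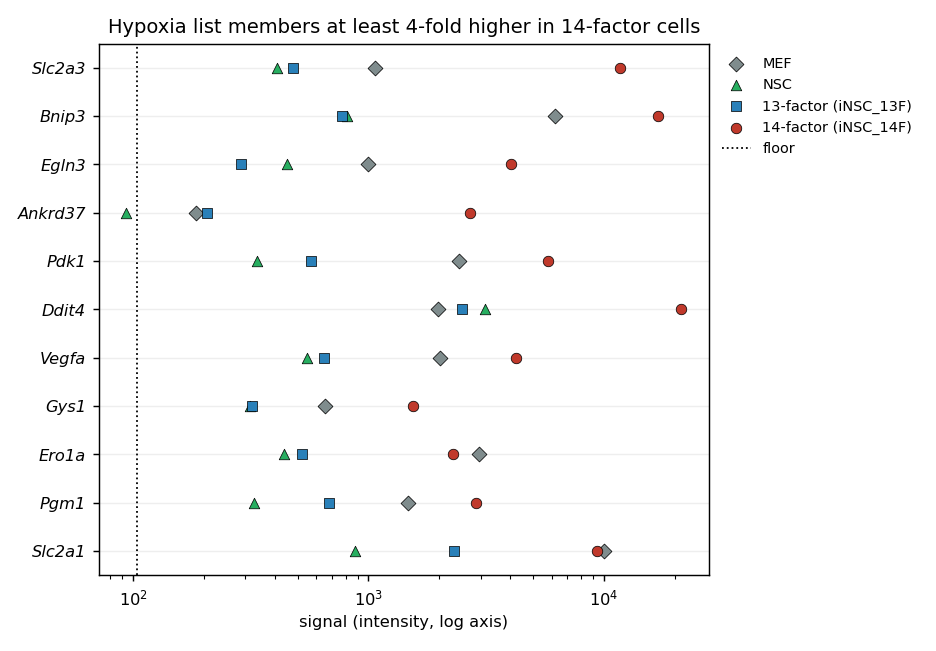
Signal (x axis, intensity, log axis) of the 11 hypoxia list members at least 4-fold higher in the 14-factor cells, on each of the 4 arrays, 1 point an array. Red circles (14-factor) stand far to the right of blue squares (13-factor) for every gene, as for Slc2a3 at 11655 and 478, and Slc2a1 and Ero1a are the rows where MEF is as high as the 14-factor cells or higher.

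A further list of 20 genes known to respond to low oxygen was written after the values were seen. Of its 13 measured genes 10 were on the higher side and 3 on the lower. At 2-fold 6 were higher, against 5.98% of all measured genes, and none was lower, against 2.95%. Ppp1r3c, which targets a phosphatase to glycogen, was 9611 against 694, or 13.8-fold, and Selenbp1, a selenium-binding methanethiol oxidase, was 2925 against 234, or 12.5-fold. Ndrg1, a stress-induced growth regulator, was 1157 against 196, with all 4 measured probe sets higher. Fam162a, a mitochondrial protein, was 29764 against 6744. Of the 15 genes with the largest difference higher above the floor on both arrays, 7 were in the hypoxia lists and 10 in these or the added list. With all of these genes left out, 38 genes were at least 4-fold higher and 39 at least 4-fold lower. At 2-fold 615 were then higher and 317 lower. The lists were written with results of these data known and held 15 of the higher calls at 4-fold and 0 of the lower. The counts left over follow from that choice and describe these arrays only.

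Mitochondrial energy genes differed little. None of 31 measured genes of oxidative phosphorylation was 2-fold apart, with a median log2 difference of 0.06 and a range of -0.44 to 0.33. The brightest, Cox6a1 of complex IV, was 51891 in the 14-factor cells and 45114 in the 13-factor cells. None of 15 genes of the tricarboxylic acid cycle was 2-fold apart, and citrate synthase, Cs, was 25846 against 21830. Cholesterol synthesis, with 20 measured genes, had no gene 2-fold apart. DNA replication, with 22, of which 21 were above the floor on both arrays, had no call at 2-fold. At those shares few calls would be due in lists of this size, so having none sets these lists little apart. In the brightest of 5 equal groups of genes above the floor on both arrays, which holds Cox6a1 and Cs, 3.38% were 2-fold apart. Of 19 measured mitosis genes 2 were at least 2-fold higher, against 5.98% of all measured genes, and none was 2-fold lower. These were Nusap1 and Mki67, at 660 against 238 and 385 against 180. Cdk1 was 12359 against 13032 and Ube2c 13372 against 13378. NSC read 5776 for Mki67, far above both induced samples.

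**Figure D3:**
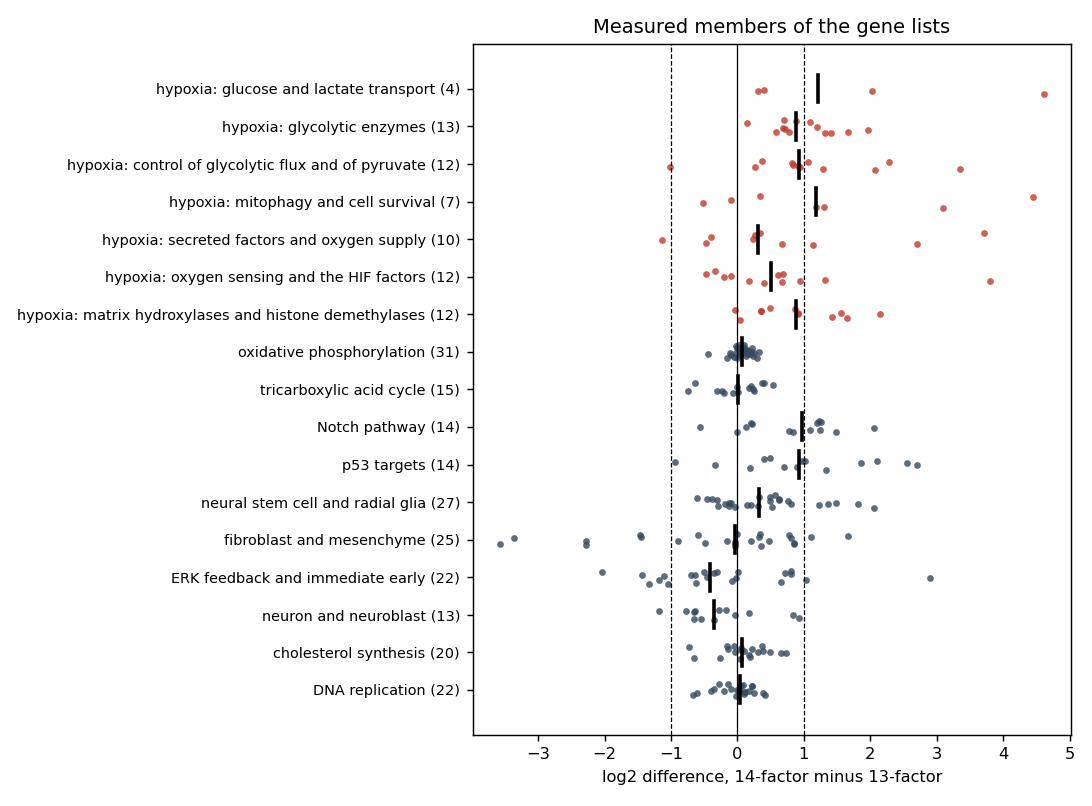
Log2 difference in signal, 14-factor minus 13-factor (x axis), of each measured member of 17 gene lists (rows, number measured in brackets), 1 point a gene, with a black bar at the list's median and dashed lines at 2-fold. The glycolytic enzymes all lie above 0 with a median of 0.88, while the 31 oxidative phosphorylation genes lie close to 0 with a median of 0.06.

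The Notch pathway, by which neighbouring neural stem cells hold each other undifferentiated, was mostly higher in the 14-factor cells. Of 14 measured genes 12 were on the higher side and 2 on the lower, with a median log2 difference of 0.97. At 2-fold 7 were higher, against 5.98% of all measured genes, and none was lower. The receptor Notch1 was 6455 in the 14-factor cells and 2313 in the 13-factor cells, with NSC at 1232 and MEF at 1517. Notch3, another receptor, was 2166 against 945, and the ligand Dll1 was 1622 against 684. Targets went the same way: Hes1, a repressor that oscillates in neural progenitors, was 1825 against 780, Hey1 was 1412 against 588, and Hes5, the classic Notch target of radial glia, was 432 against a level below the floor, at least 4.15-fold. Notch2 was the clearest exception, at 867 against 1277, and the ligand Jag1 was close to equal, at 2297 and 2092.

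Notch1 and Hes1 are also among 8 factors known from the published work on these cells, though the labels do not name them and do not say which differ between the 13-factor and 14-factor sets. A transgene and the cell's own gene cannot be told apart where a probe set lies in the part they share. Of the other 6, Plagl1 was 196 against 498 and Myc 4049 against 8335, so both were at least 2-fold lower in the 14-factor cells. Klf4 was 1706 against 2264 and Rfx4, a factor of neural progenitors, was 10675 against 11681. Pou3f2 was above the floor only in the 14-factor cells, at 146, which gives at least 1.40-fold, and Hes3 was below it on both arrays.

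Neural stem cell and radial glia markers were present on both arrays, with 27 of 32 measured. Of these, 17 were on the higher side in the 14-factor cells and 10 on the lower, with a median log2 difference of 0.32. At 2-fold 5 were higher, against 5.98% of all measured genes, and none was lower. Of the 5, Notch1, Hes1 and Hes5 were already counted in the Notch list above. Fgfr3, an FGF receptor of radial glia and astrocytes, was 7307 against 2080 and so 3.51-fold higher, with NSC at 1017. Cspg4, the NG2 proteoglycan of oligodendrocyte precursors, was 520 against 203. Core markers were close: Sox2 was 10782 against 7700, Fabp7, a fatty acid binding protein, 26405 against 21337, Nes, the filament nestin, 1682 against 1913, and Olig2, 6424 against 8839. Neither sample held Sox1 or Prom1 above the floor. Of 13 measured neuronal genes 3 were on the higher side and 10 on the lower, with a median log2 difference of -0.36. All 13 were above the floor in the 13-factor cells but only 7 in the 14-factor cells, so this median rests in part on the floor. Ina, an intermediate filament protein, was 2.26-fold lower, at 404 against 914, and the only call in the list. Others, such as Syp at 79 against 178, were below the floor in the 14-factor cells and have bounds under 2-fold.

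Markers of the possible starting cells were scarce on both arrays. Of 24 hepatocyte genes 20 had a probe set, and none of these was above the floor on either array, the highest signal being 101.7, and their summed signal was 731 in the 14-factor cells and 821 in the 13-factor cells. Of 23 genes of B lymphocytes and other blood cells 5 were measured, with summed signals of 1372 and 1790 over the list. The highest was Ebf1, an early B-cell factor also used in other tissues, at 183 against 462, while NSC read 549. In the endothelial list only Kdr, at 92.9 against 142, was measured.

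The p53 response list, genes that restrain the cell cycle or promote death, was higher in the 14-factor cells in 12 of 14 measured genes, with a median log2 difference of 0.93. At 2-fold 6 were higher, against 5.98% of all measured genes, and none was lower. Btg2, an antiproliferative gene, was 3971 against 609, or 6.52-fold, and both of its probe sets were higher. Trp53inp1, a stress-induced nuclear protein, was 1161 against 198, and Ccng1, cyclin G1, was 1260 against 294. For both, NSC was far higher than either induced sample, at 7774 and 12491. Bbc3, the death protein PUMA, was 517 against 143. The best-known targets differed less: Cdkn1a, the inhibitor p21, was 18491 against 9928, and Mdm2 was 904 against 558. Cdkn2a, which encodes p16 and ARF, was 655 against 831.

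Genes of ERK feedback ran the other way. Of 22 measured, 6 were at least 2-fold lower in the 14-factor cells, against 2.95% of all measured genes, and 2 higher, against 5.98%, with a median log2 difference of -0.41. Spry4, an inhibitor of FGF signalling, was 2388 against 9827, or 4.11-fold lower, and the phosphatases Dusp5 and Dusp4 were 447 against 1130 and 1698 against 3856. Phlda1, an early response gene, was 4300 against 11633. Several members of the list did not join them. Dusp6 was 14381 against 23260 and Etv5 19057 against 24370, below 2-fold, Egr1 was 21393 against 12276, and Ier3, an anti-apoptotic early gene, was 7.45-fold higher at 7711 against 1035. Upstream of ERK, Hbegf, a ligand of the EGF receptor, was 574 in the 14-factor cells and 11304 in the 13-factor cells, 19.7-fold lower. NSC, at 611, sat with the 14-factor cells, and MEF, at 10274, with the 13-factor cells. The receptor Egfr was close to equal, at 516 and 520.

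**Figure D4:**
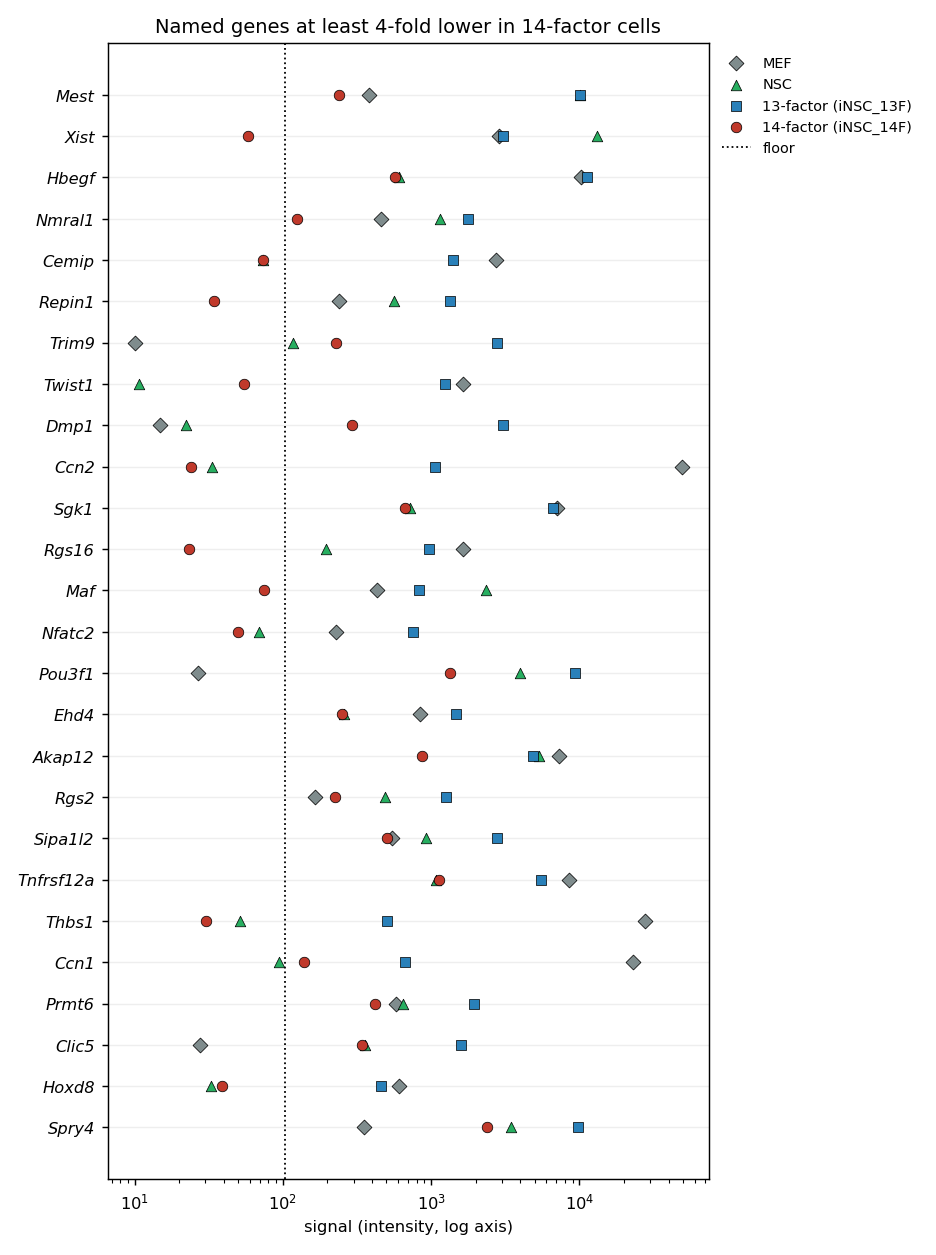
Signal (x axis, intensity, log axis) of the named genes at least 4-fold lower in the 14-factor cells, on each of the 4 arrays, 1 point an array, with the floor as a dotted line. Points left of the dotted line were not told apart from background. Hbegf, Sgk1 and Tnfrsf12a show the NSC level beside the 14-factor one, while Mest and Akap12 show it beside the 13-factor one.

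Among fibroblast and mesenchyme genes 25 of 38 were measured, with 14 on the lower side in the 14-factor cells and 11 on the higher. At 2-fold 6 were lower, against 2.95% of all measured genes, and 2 higher, against 5.98%. Twist1, a transcription factor of mesenchyme, was 1241 in the 13-factor cells and 54.7 in the 14-factor cells, at least 11.9-fold, with MEF at 1638 and NSC at 10.8. The matricellular genes Ccn2 and Ccn1 were 24.0 against 1070 and 139 against 671, and Thbs1, thrombospondin, was 30.2 against 505. All 3 were far below MEF in both induced samples, with Ccn2 at 48902 there. Thy1, a surface marker of fibroblasts and neurons, was 171 against 472. The higher ones were S100a4, a calcium-binding protein, at 265 against 123, and the collagen gene Col6a2, at least 3.15-fold by its brighter probe set and lower by its other one. The collagens that define fibroblasts were at or near the floor in both, with Col1a1 below it and Col1a2 at 115 and 116. The median log2 difference was -0.04 and ranged up to 0.26 with other settings, so the list had no one direction. Summed over it, the signal was 42173 in the 14-factor cells, 38787 in the 13-factor cells and 721803 in MEF. The list's part in the other differences was not tested.

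Mest, an imprinted gene expressed from the paternal copy, had one of the largest differences, beside Xist, whose fold is a bound. Mest was 240 in the 14-factor cells and 10138 in the 13-factor cells, 42.3-fold lower, with NSC at 10175 and MEF at 379. The 13-factor cells thus carried the NSC level and the 14-factor cells a level near that of MEF, with 1 measured probe set. Other imprinted genes did not follow as a group. Of 14 measured, 1 was at least 2-fold higher, against 5.98% of all measured genes, and 2 lower, against 2.95%. The lower ones were Mest and Plagl1, Peg3 was 2.62-fold higher at 832 against 318, and Ndn was 5666 and 5921.

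Xist, the RNA that coats the inactive X chromosome in female cells, was 58.0 in the 14-factor cells, below the floor, and 3072 in the 13-factor cells, at least 29.5-fold. NSC read 13134 and MEF 2893. Of the 2 measured probe sets of Xist both were lower in the 14-factor cells, but only 1 by at least 2-fold. With other settings its log2 difference ranged from -5.73 to -0.97. The Y-linked gene Eif2s3y ran opposite, at 408 in the 14-factor cells and 106 in the 13-factor cells, the latter just above the floor, with MEF at 367 and NSC at 19. Kdm5d, Uty and Usp9y, also on the Y chromosome, were below the floor on both arrays. The median log2 difference was 0.20 for genes of the X chromosome and -0.003 to 0.14 for the 19 autosomes. Because the samples differed in Xist and Eif2s3y as well as in the number of factors, effects of the factors and of the cells or animals behind each sample cannot be told apart in any difference given here.

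Position genes had calls at 2-fold in both directions. Of 7 measured anterior Hox genes 5 were above the floor on both arrays, and all 5 were within 2-fold, Hoxa5 for one at 1099 and 897. Hoxa4 was at least 1.66-fold higher, at 172 against 69.9. Of 4 measured posterior Hox genes 1 was 2-fold higher and 1 lower, against 5.98% and 2.95% of all measured genes. Hoxd8 was 38.7 against 461, at least 4.43-fold lower, while Hoxa7 was 2.15-fold higher at 387 against 180. In the midbrain and hindbrain list 2 of 10 measured genes were 2-fold higher and 1 lower. Irx3, a patterning factor, was 3756 against 977, Meis2, a Hox cofactor, was 1034 against 373, or 2.77-fold higher, and Gbx2, a hindbrain organiser gene, was 93.1 against 270. Of 4 measured forebrain genes none was called at 2-fold, and Otx2 was below the floor on both arrays.

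In the remaining signalling lists the counts at 2-fold, against 5.98% higher and 2.95% lower of all measured genes, were 2 higher and 1 lower of 10 for Wnt, 0 higher and 2 lower of 12 for BMP, and 1 higher and 1 lower of 9 for Hedgehog. For Wnt, Lgr5 and Nkd1, both induced by the pathway, were 3.89-fold and 2.46-fold higher. Other measured probe sets of Nkd1 were only 1.10-fold and at least 1.05-fold higher. With other settings the log2 difference was as low as 0.13 for Lgr5 and 0.16 for Nkd1. Lef1, a transcription factor of the same pathway, was 3.74-fold lower at 191 against 713. In the BMP list Bmp2 and Msx1 were lower, at 28.8 against 271 and 318 against 855, and Id1 was 4710 and 4124. For Hedgehog, the effector Gli2 was 741 against 292 and the co-receptor Cdon 406 against 951. Of 22 measured genes of unfolded protein and amino acid stress, 1 was at least 2-fold higher and 2 lower, against the same shares. Mthfd2 was 2.36-fold lower and Atf3 at least 2.15-fold lower, while Vldlr was 2.01-fold higher. Hspa5, the main chaperone, was 11007 and 9083.

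Several genes of the extremes lay outside these lists. Pou3f1, a POU factor of neural progenitors and Schwann cells, was 1340 in the 14-factor cells and 9343 in the 13-factor cells, with NSC between them at 3976. Sgk1, a kinase induced by serum and steroids, was 667 against 6597, with NSC at 726 and MEF at 7069. Dmp1, a matrix protein of bone, was 295 against 3067 and near absent in NSC and MEF, at 22.1 and 14.8, and all 3 of its measured probe sets were lower. Trim9, a brain ubiquitin ligase, was 228 against 2775, with NSC at 117. On the higher side Afap1l2, an adaptor of SRC signalling, was 1748 against 65.1, at least 16.8-fold, and NSC was 162. Igfbp5 was 7.62-fold higher by its brighter probe set, 7147 against 938, but its other probe set was lower, at 47.8 against 169, so its direction is unsettled.

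Set against NSC, the genes called at 4-fold split by side. Of the 53 higher genes 34, or 64.2%, had the 13-factor level within 2-fold of NSC and the 14-factor level above both. Of the 39 lower genes 26, or 66.7%, had the 14-factor level within 2-fold of NSC and the 13-factor level above both. These genes were chosen for being higher in that sample, so the placement follows in part from the choice. Signals below the floor were set to it first, and 14 of the 53 and 15 of the 39 are bounds. The same shares over all measured genes were not counted. At 2-fold the higher genes were spread more evenly: 254 of 647, or 39.3%, had the 13-factor level within 2-fold of NSC and the 14-factor level above. Another 126 had the 13-factor level below NSC and the 14-factor level within 2-fold of it, and 134 had both below.

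Genes with several probe sets gave a limited check inside each array, although probe sets of a gene share the RNA and are no replicates. The probe set that made the call is among those counted, so its direction was fixed in advance. Of 24 genes called 4-fold higher with 2 or more measured probe sets, 23 had all in the same direction, Igfbp5 being the exception. Of 25 such lower genes all 25 did. Every measured probe set was at least 2-fold apart in that direction for fewer genes, 19 of the 24 and 15 of the 25. Among genes called at 2-fold the shares with all in the same direction were smaller, with 240 of 307 higher and 122 of 136 lower genes. The share over all measured genes was not counted, so these shares have no level to be set against. Dim genes varied more: the robust SD of the log2 difference between these arrays was 0.56 for the dimmest and 0.31 for the brightest of 5 equal groups of the genes above the floor on both. Background also differed, the 95th percentile of the receptor genes being 72.4 on the 14-factor array and 99.6 on the 13-factor array. The hybridization controls were 1.13-fold and the poly-A controls 1.54-fold lower on the 14-factor array, and the ratio of 3′ to 5′ signal for actin was 1.65 and 1.53. Their part in the differences was not tested.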

How the data were processed

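Total RNA was labelled with biotin and hybridised to Affymetrix mouse expression arrays, per the labels' protocols. The authors deposited linear intensities for each probe set. According to the submitters' processing notes they used MAS5, which summarises each array alone, so effects that grow with brightness stay in. Version and settings are not stated there. With 2% trimmed from each end, the mean intensity was 500 on every array, and no further scaling was applied.

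Of 45101 probe sets, 64 were controls, 34945 named 1 gene in the platform annotation (34741 matched by gene ID to the GRCm38.p6 table), 932 named several and 9160 none. The last 2 kinds were left out. Each gene is represented by the probe set with the highest mean log2 signal on the 4 arrays. As the floor served the highest of the 4 arrays' 95th percentiles over 84 odorant, vomeronasal and taste receptor probe sets. Signals below it were set to it before log2.

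Samples were grouped by the cell type label, 1 array a group, so no test was run. Calls needed a 4-fold difference, or 2-fold for list members, with the brighter array above the floor. Precision is limited by the number of arrays and by signal over background. The script was checked on simulated data. The members and the 40 gene lists were chosen with earlier results of these data known, and 3 further lists, for low oxygen, YAP and FOXO, after the values were seen. Named genes were the 15 largest differences each way among genes that both arrays measured above the floor, the 8 largest bounds each way, the 10 each way whose probe sets agreed best, all hypoxia, factor, sex-linked and housekeeping members, up to 6 of each other list, and genes on opposite sides of NSC. Other list members are named as examples, chosen after their values were seen. Alternatives covered the scaling, the floor and the choice of probe set. Python 3.11.15, numpy 2.4.6, pandas 2.3.3, statsmodels 0.14.6 and matplotlib 3.10.9 were used.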

Additional observations from a re-analysis of the deposited data

Results flagged for a closer look

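In 5 genes the induced samples lay on opposite sides of the NSC level, each by at least 2-fold, with all 3 arrays above the floor. The difference was not tested, since each sample is 1 array. Ccng2, cyclin G2, an antiproliferative gene, was 1.513 above NSC in the 14-factor cells and at -1.294 in the 13-factor cells on the log2 scale, with both of its probe sets in the same direction between the induced samples. Usp2, a deubiquitinase, was at 1.129 and -1.025, and Myorg, a glycosidase-like protein, at 1.057 and -1.353. Pou3f1 ran the other way, at -1.569 in the 14-factor cells and 1.233 in the 13-factor cells, as did Rgs2, a regulator of G-protein signalling, at -1.112 and 1.366. Groups of 1 sample cannot hold a sample that stands apart from its group.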

How the results depend on the processing

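No paired analysis was possible because each group has 1 array. Of 133 named genes at least 2-fold apart, 131 kept their direction under every alternative in which they were measured and 93 stayed at least 2-fold apart. These genes were picked for their size, and a change of floor cannot turn a direction. Only a change of probe set did, so the kept directions were largely fixed in advance. Igfbp5 turned to -0.70 (log2) without probe sets ending in _s_at or _x_at, and Col6a2 to -0.62 with the brightest probe set on the induced arrays, in each case because another probe set was taken. The median log2 difference of the hypoxia lists ranged from 0.75 to 0.97, of Notch from 0.70 to 1.15, of p53 targets from 0.64 to 1.11 and of ERK feedback from -0.57 to -0.23. Counts moved more, and the cause was not tested. Scaling to the hybridization controls left 206 genes 2-fold lower. A floor at the 75th percentile gave 64 genes 4-fold lower and 765 genes 2-fold lower. No floor, with a pseudocount of 16, gave 112 genes 4-fold higher, 169 genes 4-fold lower and 627 genes 2-fold lower. The 4-fold lower count was 23 when each gene took its median probe set value and 24 above the floor on both arrays. Counting every probe set by itself, an alternative chosen after seeing the data, gave 645 lower at 2-fold. The share of 4-fold calls that were higher ran from 39.9% with no floor to 73.6%, and of 2-fold calls from 51.4% with loess to 82.1%, against 57.6% and 67.0%. Signal over background limits dim genes, and bounds among the calls, 14 of 53 higher and 15 of 39 lower, rest on the floor.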

Other observations

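Both lists described here were written after the values were seen, so their counts describe these arrays only. FOXO factors, which insulin and growth factor signalling keep out of the nucleus, raise genes that slow growth and protect from stress. Of 19 measured FOXO targets, 7 were at least 2-fold higher in the 14-factor cells, against 5.98% of all measured genes, and none was 2-fold lower. Their median log2 difference was 0.59. Ccng2 was 3951 in the 14-factor cells and 565 in the 13-factor cells, so 7-fold higher. Txnip, a brake on glucose uptake that is also raised by glucose itself, was 1113 against 168, or 6.61-fold, with NSC at 163 and MEF at 2704. Klf15 was 454 in the 14-factor cells and below the floor in the others except NSC, where it was 117. Pik3ip1, an inhibitor of PI3 kinase, was 1342 against 439, and Insr, the insulin receptor, was 390 against 181. Against these, Irs2 was 459 and 531, and Gadd45a 1339 and 1700. Trp53inp1 and Sesn1 are in the p53 list too.

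YAP and TAZ, the effectors of the Hippo pathway, act with TEAD factors on genes of growth and cell contact. Of 20 measured targets, 6 were at least 2-fold lower in the 14-factor cells, against 2.95% of all measured genes, and 2 higher, against 5.98%. Their median log2 difference was -0.19. Lats2, a kinase of the pathway itself, was 378 against 812, and Crim1, a membrane protein, was 163 against 426. The other 4 lower genes, Ccn1, Ccn2, Thbs1 and Igfbp3, were also in the fibroblast or hypoxia lists. Tead1 was higher, at 5147 against 2405, as was Nuak2 at 424 against 192. Ankrd1, often used as a reporter of YAP, was below the floor on both arrays.

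In the list of interferon response and MHC class I genes 2 of 7 measured were at least 2-fold higher, against 5.98% of all measured genes. Tap1, the peptide transporter, was 596 in the 14-factor cells and 165 in the 13-factor cells. H2-D1 was 511 against 253, or 2.02-fold, and stayed at least 2-fold higher in 5 of 8 other settings, while B2m was 3203 against 3508. Of 20 measured integrin, laminin and adhesion genes 11 were on the higher side and 9 on the lower, with a median log2 difference of 0.10. At 2-fold 3 were higher, against 5.98% of all measured genes, and none was lower, against 2.95%. Cdh13, a cadherin without a cytoplasmic tail, was 1981 against 575, Ncam1 1984 against 758 and Itgb8 343 against 136. All 4 measured probe sets of Ncam1 were higher, 2 of them at least 2-fold. Another was close to the floor, at 111 against 85.6.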
